A study of Mus musculus with 9 samples.

Results

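The genes described here are 10 genes whose signal in the lateral nasal gland, which secretes fluid and proteins into the mouse nasal cavity, differed widely between the strains B6 (C57BL/6) and 129/Sv. They are Pttg1, Cap1, Rpgrip1, Rab6b, Ghitm, Tmem87a, Trim34a, Naip2, Sftpc and Sdc4. What is asked of them is which parent strain's level was found in Cyp2g1-null mice, a line on a mixed background of both strains, and whether different probe sets of a gene give the same answer. The members are every probe set annotated to 1 of these genes alone, which gave 20 of the 22626 probe sets of the array. Of these, 15 passed a filter on low signals and 5 did not, while 12575 of all probe sets passed. The genes were chosen by the size of their difference between B6 and 129/Sv arrays, so that difference is given as a description without a test.

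RNA was measured on 9 1-colour Affymetrix arrays. There were 3 arrays of Cyp2g1-null mice (mixed 129/Sv and C57BL/6 background), 4 of wild-type B6 mice and 2 of wild-type 129/Sv mice. Each array held RNA of glands pooled from 10 males, aged 2 to 3 months. In a pool, mice of the line that carry different alleles and mice that each express an intermediate amount cannot be told apart, nor can fewer cells of a type and less RNA per cell. The labels do not say whether the pools of a group came from separate cohorts, so p-values measure only the spread between arrays.

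Array medians lay between 518.55 and 550.05 signal units, and correlations between arrays, over probe sets that are not independent replicates, between 0.931 and 0.972. The targeted gene, Cyp2g1, had signals of 55.7, 140.6 and 201.1 in null arrays, against 748.2 to 5916.8 in B6 and 207.5 and 981.2 in 129/Sv arrays, so no null array reached a wild-type one. The gland markers Obp1a, an odorant-binding protein, and Aqp5, a water channel of exocrine glands, were abundant in all groups, with mean signals of 128752, 143871 and 129522 for Obp1a and 25275, 25378 and 23133 for Aqp5 in null, B6 and 129/Sv arrays. Skeletal muscle actin Acta1, muscle creatine kinase Ckm and the club cell protein Scgb1a1 lay under the signal filter. Of 9 markers of neighbouring tissues and blood, 5 passed the filter and 1 was called, Tppp3 of ciliated cells, higher in null than in B6 (0.56, limma adjusted p = 0.0175). Their summed signals were 7923.2 to 10416.8 in null, 6693.9 to 9864.5 in B6 and 6643.3 to 7223.4 in 129/Sv arrays. Of the 5 gland markers, the secreted carbonic anhydrase Car6 was called higher in null than in B6 (4.70, adjusted p = 0.0158). It spread widely within groups, at 54599 ± 22079 in null, 4100 ± 4176 in B6 and 38433 ± 39666 in 129/Sv arrays (SD). Null minus 129/Sv for Car6, 0.955, was not called (limma adjusted p = 0.831). The secretoglobins Scgb1b27 and Scgb2b27 were called higher in null than in 129/Sv (2.66 and 2.04). Both were also called higher in B6 than in 129/Sv (2.15 and 1.33, limma adjusted p = 1.67e-06 and 0.00211).

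Inbred strains differ in sequence throughout the genome, and a variant can change the RNA level of the gene that carries it or of a gene elsewhere. A knockout line made in cells of one strain and crossed to another holds a patchwork of both, so a gene's RNA in such a line may sit at either parent's level or between them. The 10 genes have unrelated roles. Pttg1 encodes securin, which holds back separase until chromatids part. Cap1 recycles actin filaments, Rab6b is a small GTPase of Golgi traffic best known from neurons, and Tmem87a is a Golgi membrane protein. Rpgrip1 anchors the retinitis pigmentosa GTPase regulator in the photoreceptor cilium. Ghitm is a protein of the inner mitochondrial membrane. Trim34a belongs to the tripartite motif family of innate immunity, and Naip2 senses bacterial secretion systems for the NLRC4 inflammasome. Sftpc is a lung surfactant protein, and Sdc4, syndecan-4, is a heparan sulphate proteoglycan of the cell surface.

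The chromosomes of the members are 14 for Rpgrip1, Ghitm and Sftpc, 2 for Tmem87a and Sdc4, and 11, 4, 9, 7 and 13 for Pttg1, Cap1, Rab6b, Trim34a and Naip2 in that order. Cyp2g1 itself lies on chromosome 7, as Trim34a does. Promoter windows of RefSeq (build GRCm38.p6, the sequence of a C57BL/6J genome) were matched for 9 members, and the 100 bases before the start are shown for 4 of them. Pttg1 and Cap1 are shown because several probe sets gave 1 answer, Rpgrip1 because its strain difference was the widest of the members, and Sdc4 because its probe sets went opposite ways. Capitals mark the motif CCAAT, which reads ATTGG when it lies on the other strand, or the motif TATAA, which reads TTATA there. Both strands were searched, a match being a description of the letters only. No 129/Sv sequence was compared.
Pttg1 (chr11:43425982-43426081, minus strand): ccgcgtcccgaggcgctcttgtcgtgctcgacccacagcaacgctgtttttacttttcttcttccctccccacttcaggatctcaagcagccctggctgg
Cap1 (chr4:122886077-122886176, minus strand): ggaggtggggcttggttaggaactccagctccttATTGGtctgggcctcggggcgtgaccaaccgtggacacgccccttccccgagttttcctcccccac
Rpgrip1 (chr14:52110803-52110902, plus strand): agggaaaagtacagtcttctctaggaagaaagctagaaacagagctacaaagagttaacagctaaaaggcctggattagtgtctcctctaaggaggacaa
Sdc4 (chr2:164443189-164443288, minus strand): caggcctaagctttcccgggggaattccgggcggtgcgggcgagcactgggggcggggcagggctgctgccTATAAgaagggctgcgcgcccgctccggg
CCAAT was found in 3 of the 9 windows (Cap1, Ghitm and Trim34a) and in 18.9% of all 32851 windows. TATAA was found in 1 (Sdc4) and in 10.2% of all windows.

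To place the null line, the position of its mean was computed on the log2(signal + 16) scale, with 0 at the 129/Sv mean and 1 at the B6 mean, wherever the strains differed by at least 1 on that scale. A position above 0.75 was called the B6 level and one below 0.25 the 129/Sv level. By the probe set with the highest mean signal, the null line was at the B6 level for 6 of the 10 genes (Pttg1, Cap1, Rpgrip1, Rab6b, Ghitm and Sftpc). It was at the 129/Sv level for 2 (Trim34a and Naip2) and between the strains for the other 2 (Tmem87a and Sdc4). Among all 145 genes (1.94% of 7487) that passed the test between the strains (limma, adjusted p under 0.05) with a difference of at least 1, the B6 level was found for 37.2%, the 129/Sv level for 23.4% and a place between for 39.3%. Of the 81 such genes that were higher in B6, 51.9% were at the B6 level, 17.3% at the 129/Sv level and 30.9% between. Of the 64 that were higher in 129/Sv, 18.8% were at the B6 level, 31.2% at the 129/Sv level and 50% between.

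**Figure D1:**
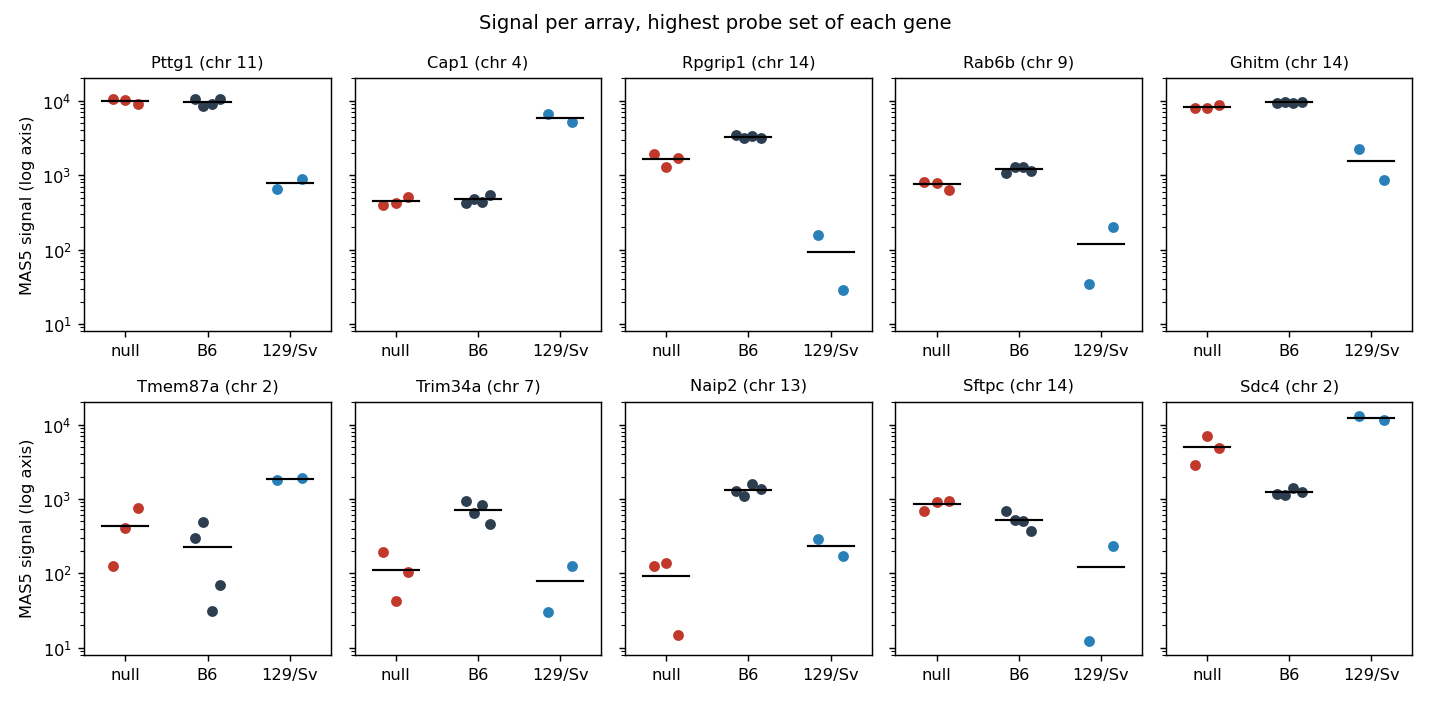
MAS5 signal (log axis) of each array at the highest probe set of each gene, in null, B6 and 129/Sv arrays; points are arrays and bars are arithmetic means. Null arrays lie among the B6 arrays for Pttg1, overlap them for Cap1 (1 of 3 within the B6 range), and lie near the 129/Sv arrays for Trim34a, below both strains for Naip2 and between them for Sdc4.

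Pttg1 RNA in the null line was at the B6 level by every probe set. The brightest (1438390_s_at) had signals of 10508.9, 10341.1 and 8989.1 in null arrays, 10724.3, 8629.1, 9089.7 and 10544.7 in B6 arrays, and 652.9 and 896.6 in 129/Sv arrays. All 3 null arrays lay within the B6 range and far above both 129/Sv arrays. The mean was 9946 ± 833.3 (SD, n = 3) in null and 9747 ± 1045 (SD, n = 4) in B6 arrays, a log2 difference of 0.03 (95% interval -0.23 to 0.30, limma adjusted p = 0.94). In 129/Sv arrays the mean was 774.8 ± 172.3 (SD, n = 2), which was 12.8-fold lower than in null arrays. A second probe set (1424105_a_at) gave 2490.6, 2836.5 and 2380.7 in null, 1840.7 to 2961.7 in B6, and 221.5 and 85.5 in 129/Sv arrays. The dimmest (1419620_at) gave 330.7, 550 and 712.7 in null, 277.2 to 613.5 in B6, and 57.3 and 59.7 in 129/Sv arrays. Null minus B6 was 0.08 (95% interval -0.44 to 0.59) at the second and 0.15 (-0.77 to 1.07) at the third, so the interval widened as the signal fell. Strain differences at the 3 probe sets, from brightest to dimmest, were 3.64, 3.98 and 2.66 for B6 minus 129/Sv on the log2 scale.

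Cap1 was the mirror image, low in the null line and in B6 and high in 129/Sv. Its brighter probe set (1417461_at) had signals of 402.1, 423.6 and 512.9 in null, 424.2, 478.9, 441.1 and 550 in B6, and 6620.9 and 5270.6 in 129/Sv arrays. The other (1417462_at) had 196.7, 159 and 146.6 in null, 248.9, 158.5, 236.5 and 163.7 in B6, and 3671.6 and 3899.7 in 129/Sv arrays. At both, null and B6 arrays overlapped, and the 129/Sv arrays stood far above all of them. Null minus B6 was -0.08 at the brighter (95% interval -0.46 to 0.29, limma adjusted p = 0.873) and -0.23 at the other (-0.93 to 0.46, adjusted p = 0.791). The 129/Sv mean was 13.3-fold and 22.6-fold above the null mean. All null signals of Cap1 lay below their array's median.

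Rpgrip1 had the widest strain difference of the members, 5.22 for B6 minus 129/Sv on the log2 scale, and its null level was near B6 without reaching it. Its probe set 1421144_at had signals of 1918.1, 1282.6 and 1692.9 in null, 3514.6, 3174, 3351 and 3153.2 in B6, and 158.2 and 29 in 129/Sv arrays. Every null array was below every B6 array and above both 129/Sv arrays. The null mean of 1631 ± 322.2 (SD, n = 3) was 2.02-fold lower than the B6 mean of 3298 ± 169.4 (SD, n = 4), with a log2 difference of -1.03 (95% interval -1.72 to -0.33) that did not pass over all probe sets (limma adjusted p = 0.137). It did pass in a fit of null and B6 arrays alone (limma adjusted p = 0.00158). The main fit estimates the spread over all 3 groups together. On the log2 scale the SD was 0.29 in null, 0.07 in B6 and 1.38 in 129/Sv arrays. The position was 0.80, with single null arrays at 0.85, 0.74 and 0.82. The 3 other Rpgrip1 probe sets were under the signal filter, with all signals between 22.9 and 212.7, and overlapped in all 3 groups.

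Rab6b and Ghitm showed the same order as Rpgrip1, with null arrays below B6. The only Rab6b probe set (1434914_at) gave 822.3, 797.3 and 638.3 in null, 1084.8, 1277.6, 1302.6 and 1149 in B6, and 34 and 202.2 in 129/Sv arrays. Null and B6 arrays did not overlap, and the log2 difference of -0.67 (95% interval -1.47 to 0.13, limma adjusted p = 0.438) did not pass. Omp, the marker of mature olfactory neurons, had mean signals of 1113 in null, 1675 in B6 and 710.9 in 129/Sv arrays. The means had the order of Rab6b and Rpgrip1, but the spread was wide, with SDs of 659.7, 1148 and 146.7. Null signals of Omp ran from 656.1 to 1869.7, so the lowest lay below the 129/Sv mean. The null minus B6 difference of Omp, -0.50, did not pass either (adjusted p = 0.632), and the part of neurons in these results was not tested. Ghitm at its brighter probe set (1415882_at) gave 8046.3, 8011.2 and 8742.1 in null, 9469.3, 9518.3, 9466.2 and 9773.2 in B6, and 2272.3 and 856.5 in 129/Sv arrays. Again no null array reached a B6 array, although the means of 8267 ± 412.2 (SD, n = 3) and 9557 ± 146.3 (SD, n = 4) differed by 0.21 on the log2 scale (null minus B6 -0.21, 95% interval -0.68 to 0.26, adjusted p = 0.711). For this probe set the fit of null and B6 arrays alone gave a limma adjusted p of 0.255. The other Ghitm probe set (1415881_at) showed a much smaller strain difference, 0.45 against 2.76 for B6 minus 129/Sv. Its signals were 5277, 5668.6 and 5370.4 in null, 4881.2 to 5343.2 in B6, and 4516.7 and 3124.1 in 129/Sv arrays. Null arrays overlapped the B6 arrays there, with null minus B6 at 0.08 (95% interval -0.17 to 0.33). How far Ghitm differs between the strains therefore depends on the probe set.

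Sftpc was at or above the B6 level in the null line. The probe set 1418639_at gave 698, 909.4 and 940.7 in null, 689.3, 524.1, 504.5 and 367.3 in B6, and 12.4 and 230.8 in 129/Sv arrays. Every null array was above every B6 array, and the 129/Sv arrays were low but unlike each other. The log2 difference from B6 was 0.71 (95% interval -0.48 to 1.90, limma adjusted p = 0.6). A second probe set (1438290_x_at) lay under the filter at 18.6 to 149.7 in all groups and showed no order. Of 10 genes listed for surfactant and alveolar type 2 cells, 9 had a probe set of their own, and 6 of these lay under the filter with signals of 14.5 to 510.4, among them Sftpa1, Sftpb, Napsa and Nkx2-1. Summed over the 9, signals were 11802 to 12224 in null, 8838.5 to 10075.2 in B6 and 11174.9 to 13951.1 in 129/Sv arrays. Most of the sum came from Sftpd, with mean signals of 7618, 5349 and 7415 in null, B6 and 129/Sv arrays. The sum was high in 129/Sv arrays, where Sftpc was low, but it says little of the genes under the filter. What part cell content had in the Sftpc result was not tested.

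**Figure D2:**
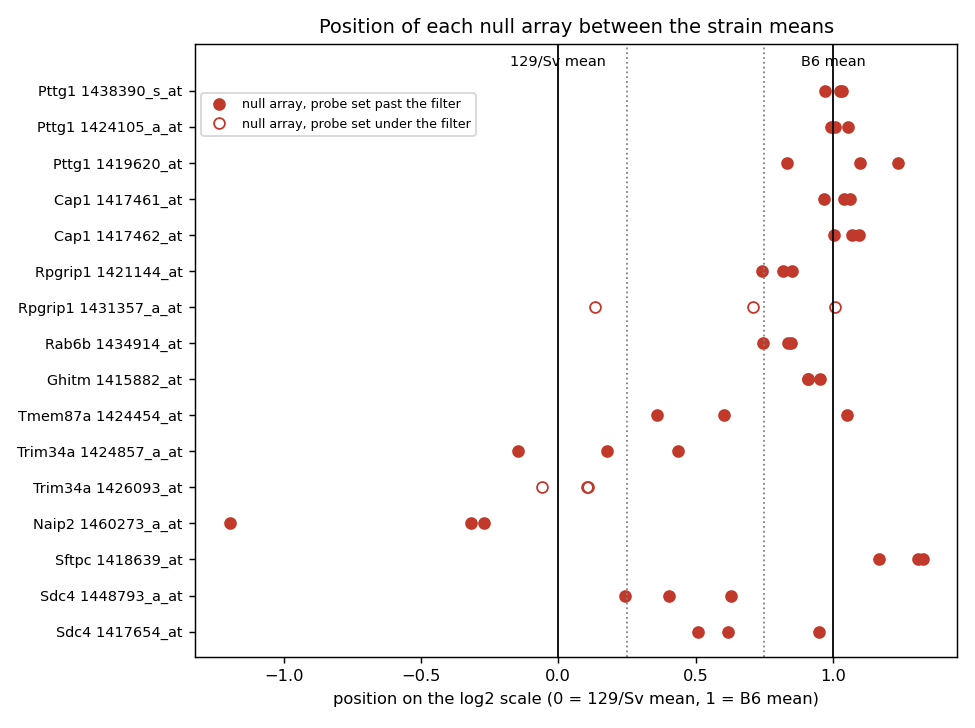
Position of each null array on the log2 scale (0 = 129/Sv mean, 1 = B6 mean; dotted lines at 0.25 and 0.75) for every probe set whose strain means differ by at least 1; filled points are probe sets past the signal filter and open points are under it. Arrays of Pttg1, Cap1 and Ghitm crowd near 1, those of Naip2 lie below 0, and those of Tmem87a run from 0.36 to 1.05.

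Trim34a and Naip2, both genes of innate immunity, were at the 129/Sv level or below it. Trim34a at probe set 1424857_a_at gave 191.4, 43.1 and 102.8 in null, 932.7, 642.4, 827.4 and 464.3 in B6, and 29.9 and 126.7 in 129/Sv arrays. Null arrays overlapped the 129/Sv arrays and lay below all B6 arrays, with null minus 129/Sv at 0.49 (95% interval -1.17 to 2.14, limma adjusted p = 0.884). The position was 0.16, but single null arrays ran from -0.14 to 0.43, so array 1 alone was between the strains. Without 129/Sv array 1 the difference from 129/Sv became -0.33, and without 129/Sv array 2 it became 1.30. A second Trim34a probe set (1426093_at), under the filter, had the strains the other way round, with 237.1, 186 and 187.6 in null, 31.9 to 64.1 in B6, and 224 and 212 in 129/Sv arrays. There too the null arrays sat with 129/Sv, at a position of 0.05. A further 2 probe sets are annotated to both Trim34a and its neighbour Trim34b and were not used.

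Naip2 was below both parents in the null line. Its probe set (1460273_a_at) gave 123.8, 136 and 15 in null, 1296.6, 1081.9, 1590.7 and 1376.7 in B6, and 291.8 and 173 in 129/Sv arrays. Every null array was below both 129/Sv arrays, which in turn were below all B6 arrays. Means were 91.6 ± 66.62 in null (SD, n = 3), 1336 ± 210.3 in B6 (SD, n = 4) and 232.4 ± 84 in 129/Sv arrays (SD, n = 2), and no fold is given against null signals this dim. The log2 difference from 129/Sv was -1.47 (95% interval -2.77 to -0.17), which did not pass over all probe sets (limma adjusted p = 0.329). It was -0.73 without null array 3, and -1.87 to -0.73 over all left-out arrays. All null and 129/Sv signals of Naip2 lay under their array medians, and null array 3 was far below the other two. Of the 145 genes that differed between the strains, 4.83% had the null mean beyond either strain by more than 0.25 of the distance between them, Naip2 and Sftpc among them. The probe set may also take up RNA of the other Naip genes, which are close paralogs of Naip2. Naip5 and Naip6 had probe sets of their own under the filter, at 7.7 to 141.5 and 160.9 to 406.9 over all arrays.

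Tmem87a and Sdc4 were between the strains in the null line, in different ways. Tmem87a had 1 probe set (1424454_at), with signals of 125.2, 406.4 and 758.1 in null, 299.5, 495.5, 31.1 and 69.6 in B6, and 1798.6 and 1929 in 129/Sv arrays. Null and B6 arrays overlapped widely, and both 129/Sv arrays stood above all others. The B6 arrays fell into a brighter pair, 1 and 2, and a dimmer pair, 3 and 4. Null minus B6 was 1.17 (95% interval -0.44 to 2.78, limma adjusted p = 0.512), became 2.50 without B6 arrays 1 and 2 (adjusted p = 0.0459), and turned to -0.16 without B6 arrays 3 and 4 (adjusted p = 0.953). The null position, 0.67, thus rests on which B6 arrays it is set against.

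Sdc4 gave opposite strain differences at 2 probe sets drawn from the same sequence record. At the brighter (1448793_a_at) signals were 2887.4, 7012.9 and 4862.2 in null, 1157.7, 1142.4, 1397.3 and 1233.4 in B6, and 13126 and 11444.3 in 129/Sv arrays. The 3 groups were fully apart, with null in the middle at a position of 0.43. The null mean of 4921 ± 2063 (SD, n = 3) was 3.99-fold above the B6 mean and 2.5-fold below the 129/Sv mean. The difference from the nearer strain, 129/Sv, was -1.40 on the log2 scale (95% interval -1.96 to -0.85) and passed (limma adjusted p = 0.00953), but not without 129/Sv array 1 or 2 (adjusted p = 0.0986 and 0.0647). At the dimmer (1417654_at) signals were 1668.7, 1066.2 and 1192.5 in null, 1767, 1610.4, 2029.3 and 1645.3 in B6, and 728.7 and 554.3 in 129/Sv arrays. Here B6 was the highest group, null was between at 0.69, and null minus B6 was -0.45 (95% interval -0.81 to -0.08, adjusted p = 0.242). B6 minus 129/Sv was -3.30 at the first and 1.44 at the second. Null array 1 was nearest to B6 at both, with positions of 0.63 and 0.95, and null array 2 nearest to 129/Sv, with 0.24 and 0.51.

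**Figure D3:**
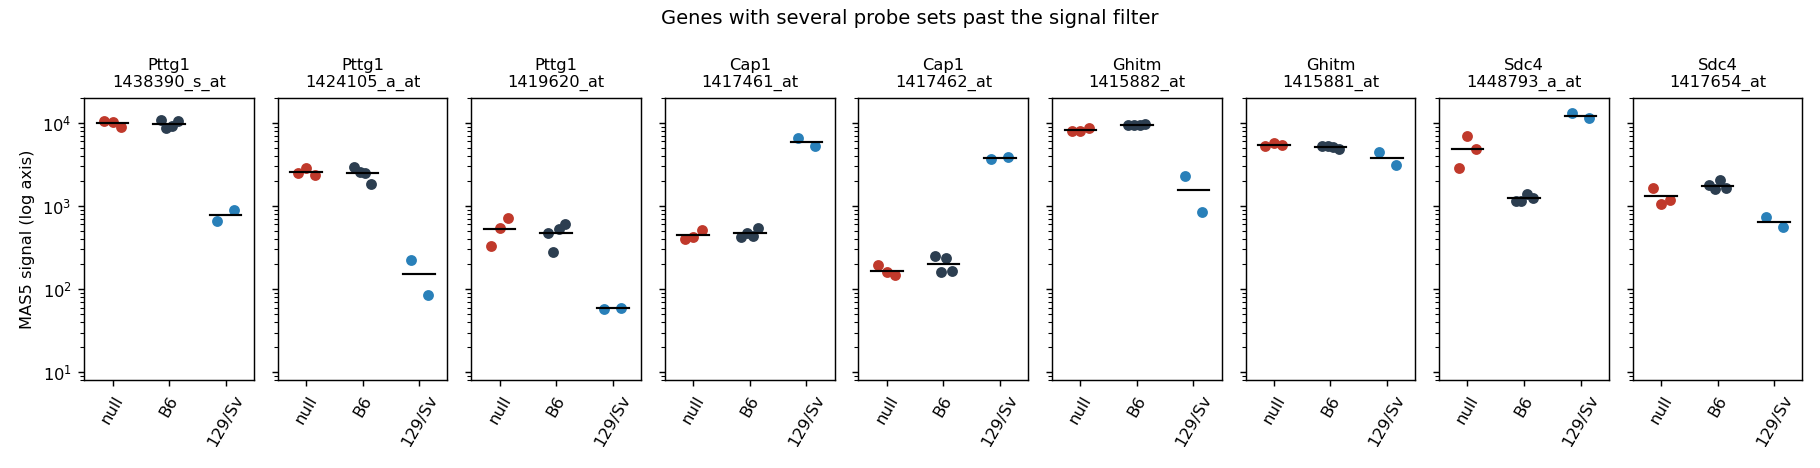
MAS5 signal (log axis) per array in null, B6 and 129/Sv arrays for the 4 genes with several probe sets past the filter; points are arrays and bars are arithmetic means. The 3 Pttg1 and 2 Cap1 probe sets repeat 1 pattern, the second Ghitm probe set has a smaller strain difference, and the 2 Sdc4 probe sets order the strains in opposite ways.

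Of the 10 members, 7 had more than 1 probe set, which gave 10 further probe sets in all. A further probe set was taken to agree when it had the same direction between the strains, a difference of at least 1 and the same class of null position. By this measure 3 of 10 agreed, those of Pttg1 and Cap1. Of the 5 further probe sets past the filter these 3 agreed, the second of Ghitm had too small a strain difference, and that of Sdc4 went the opposite way. Of the 5 under the filter, 3 had the opposite direction, and all lay near the dim end of the array. Probe sequences were not used here, so whether bases that differ between the strains lie under a probe was not tested.

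Over the 15 member probe sets past the filter, null was called against B6 at 2 (Naip2 and the brighter Sdc4 probe set) and against 129/Sv at 11, where 2.18% and 2.04% of all probe sets were called (limma, adjusted p under 0.05). Distance from the farther strain follows from how the genes were chosen, and nothing is read from those counts. Against the nearer strain, 0 of the 12 probe sets nearer to B6 were called by limma (2 at an unadjusted p under 0.05), and 1 of the 3 nearer to 129/Sv (2 unadjusted). These misses do not show that the levels were equal. By the highest probe sets, null arrays overlapped neither strain at 6 of the 10 genes, against 6.52% of all probe sets, and this too is tied to the choice of genes with strains far apart. Null and B6 arrays did not overlap at 7 of the 10 (13.5% of all probe sets), and null and 129/Sv arrays at 9 (31.5%).

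The arrays of the null line, and more so those of 129/Sv, were not uniform at these genes. Over the highest probe sets, the median SD within a group was 0.26 on the log2 scale in null, 0.16 in B6 and 0.74 in 129/Sv arrays, against 0.16, 0.21 and 0.14 over all probe sets tested. In the null group the smallest SD was 0.07 (Ghitm) and the largest 1.29 (Naip2). Sdc4, with SDs of 0.64 in null, 0.13 in B6 and 0.14 in 129/Sv arrays, was bright in all groups and still spread in null. For Rpgrip1, Rab6b, Trim34a, Naip2 and Sftpc both 129/Sv signals lay under the array median.

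**Figure D4:**
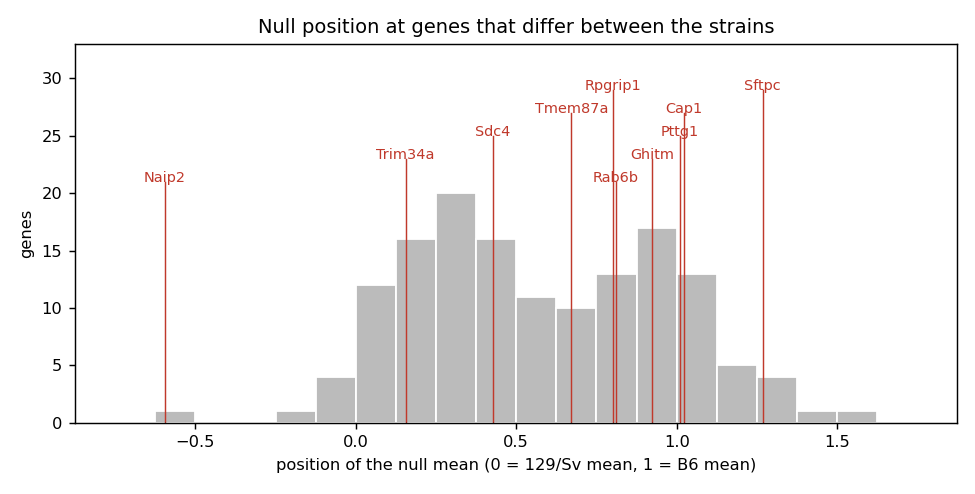
Histogram of the null position (0 = 129/Sv mean, 1 = B6 mean) over the 145 genes that passed the test between the strains with a log2 difference of at least 1; the y axis counts genes and red lines mark the 10 members. The members span the range from Naip2 at -0.59 to Sftpc at 1.27.

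Among the 396 genes called between the strains, the 7 members higher in B6 held ranks 1 to 7 of 214 by size of the difference, from Rpgrip1 to Naip2. The first gene after them was Sult1d1, a sulfotransferase, with 2.44 against 2.47 for Naip2. The 3 members higher in 129/Sv held ranks 5, 6 and 9 of 182. These ranks follow from how the genes were chosen and only describe where the members stand. Above them were BC018473 (-7.29 for B6 minus 129/Sv), the urea transporter Slc14a1 (-4.14), the protease inhibitor Serpina3n (-3.90) and the potassium channel subunit Kcnab1 (-3.67), and just below Sdc4 was the antibacterial protein Pglyrp1 (-3.26). Null positions of these were 0.48, 0.002, 0.01, 0.55 and 0.07 in that order. Mucl2, ranked between Tmem87a and Sdc4 (-3.44), had a null position of 1.09.

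Genes around each member on its chromosome were then examined, taking the 5 tested genes on either side. Of these 100 neighbours, 9 were called between B6 and 129/Sv by limma, 4 higher and 5 lower in B6, where 5.29% of all tested genes were called. The count was 4 without 129/Sv array 1 and 4 without 129/Sv array 2. No neighbour of Pttg1, Rab6b, Trim34a or Naip2 was among them. Around Rpgrip1 were 3, Supt16, Hnrnpc and Mettl17. Supt16, a histone chaperone subunit, and Hnrnpc, an RNA-binding protein, were the nearest tested genes on either side. Hnrnpc was higher in B6 (B6 minus 129/Sv 0.39), as Rpgrip1 was, and Mettl17 was lower (-0.65). Supt16 ran opposite to Rpgrip1, with mean signals of 2042, 1057 and 2682 in null, B6 and 129/Sv arrays (B6 minus 129/Sv -1.32, adjusted p = 0.000126), and its null position was 0.29 against 0.80 for Rpgrip1. Near Cap1 were Ppt1, a lysosomal thioesterase, lower in B6 as Cap1 was (-0.71, adjusted p = 0.0048), and Ndufs5, a subunit of respiratory complex I. Ndufs5 was higher in B6 (1.11), opposite to Cap1, although its null position of 1.01 was like that of Cap1. Near Ghitm was Anxa8, an annexin, with a null position of 1.00 against 0.92 for Ghitm. Near Sftpc was Rb1, the retinoblastoma gene, lower in B6 (-1.01) where Sftpc was higher, at a position of 0.23 against 1.27. Near Sdc4 was Pkig, higher in B6 (1.00) where the brighter Sdc4 probe set was lower, at a position of 0.68. Zfp106, the nearest tested gene on 1 side of Tmem87a, was lower in B6 by 0.52 on the log2 scale (-0.52, adjusted p = 0.0179), as Tmem87a was.

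**Figure D5:**
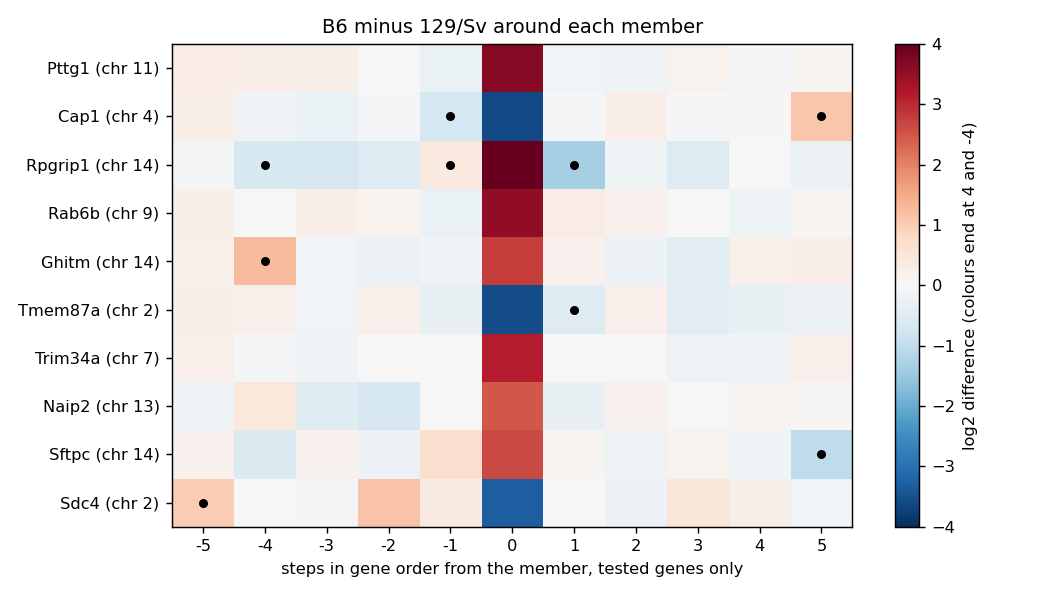
Difference between B6 and 129/Sv (B6 minus 129/Sv, log2, colour) for each member in the centre column and for the 5 tested genes on either side in gene order; black dots mark the 9 neighbours called by limma. The centre column stands out because the members were chosen by this difference, and most neighbours, which were not so chosen, are near 0.

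Of 113 genes in 10 lists that work with a member or are its paralogs, 78 had a probe set of their own and 58 passed the filter. Between null and B6, 4 were called higher and 2 lower, and between null and 129/Sv 3 were called, all higher, where 2.32% and 2.06% of all genes tested were called. The median log2 difference over the 58 was -0.02 against B6 and 0.06 against 129/Sv, beside 0.02 and 0.01 over all 7487 genes. Between B6 and 129/Sv, 5 of the 58 were called higher and 3 lower in B6, where 5.29% of all genes were called.

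Among the called genes, the null line was near B6 at some and near 129/Sv at others. Sdc2, another syndecan, had mean signals of 810.5 ± 134.5 in null (SD, n = 3), 1011 ± 387.6 in B6 (SD, n = 4) and 205 ± 176.4 in 129/Sv arrays (SD, n = 2), and was higher in null than in 129/Sv (log2 difference 2.17, limma adjusted p = 0.0396). Ahi1, a ciliary transition zone protein listed with Rpgrip1, had 532 in null, 615.6 in B6 and 123.8 in 129/Sv arrays, with null above 129/Sv by 2.13 (adjusted p = 0.0202). Both were higher in B6 than in 129/Sv and at the B6 level, at positions of 0.91. Of all genes called higher in B6 by at least 1, 51.9% were at that level. Sdc2 ran opposite to the brighter Sdc4 probe set, which was lower in B6 (-3.30) with a null position of 0.43. Dstn, destrin, which severs actin filaments, was higher in null than in 129/Sv arrays (0.65, adjusted p = 0.0127). Pfn1, profilin, which feeds actin monomers to growing filaments, had a null level above B6 (0.84, adjusted p = 0.000655), with 6240 in null, 3484 in B6 and 6239 in 129/Sv arrays. So within the actin list Pfn1 matched 129/Sv while Cap1 matched B6.

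Of the other calls, 2 were among the 3 tested surfactant genes and 2 among the 3 tested genes listed with Tmem87a. Rad21, a cohesin subunit listed with Pttg1, exceeded its B6 level in null arrays by 0.66 (adjusted p = 0.0148), Sftpd by 0.51 (adjusted p = 0.0346) and Abca3, a lipid transporter of lamellar bodies, by 0.49 (adjusted p = 0.0278). In 129/Sv arrays too, Sftpd and Abca3 had higher means than in B6. These were 7618, 5349 and 7415 for Sftpd and 2684, 1909 and 3280 for Abca3 in null, B6 and 129/Sv arrays. Gpr180 and the Wnt carrier Wls, listed with Tmem87a, were lower in null than in B6 arrays (-0.55 and -0.40, adjusted p = 0.0404 and 0.032). Trim25 was higher and Il18 lower in B6 than in 129/Sv arrays (0.82 and -1.05, adjusted p = 0.00241 and 0.0389). Gpr180 was likewise higher and Abca3 lower in B6 than in 129/Sv arrays (0.88 and -0.78, adjusted p = 0.00247 and 0.00129). Rab6a, the close relative of Rab6b, had mean signals of 3727 in null, 3158 in B6 and 3846 in 129/Sv arrays, with null minus B6 at 0.24 (95% interval -0.03 to 0.51). Tmbim6, a relative of Ghitm, had 24150, 28232 and 25964 in the same order, with null minus B6 at -0.19 (-0.53 to 0.14).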

How the data were processed

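The authors' deposited values are MAS5 signal intensities on a linear scale, per the submitters' processing notes (version not given in the sources used here), and each array was scaled to a common level, with trimmed means of 1500.56 to 1500.59. No detection calls, array dates or batches were used here, and the number of arrays limits the precision. Signals were converted to log2(signal + 16), which understates changes of dim genes. Control probe sets were left out, and the filter kept probe sets with signals over the array median in 2 or more arrays. A mean per group was fitted to each of the 12575 probe sets over all 9 arrays with limma 3.58.1 in R 4.3.3 (eBayes with trend). P-values are two-sided, with Benjamini-Hochberg adjustment over all probe sets and a threshold of 0.05, and intervals are 95%. The script was tested on simulated data. Genes were named from the platform annotation, and chromosomes and gene order came from RefSeq (GRCm38.p6). The members and lists were chosen with earlier results of these data known. Named were all members, Cyp2g1, called genes of each list (at most 4, otherwise its brightest), called neighbours, tissue markers and genes bordering the members in rank. Alternatives are given in the closing section.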

Additional observations from a re-analysis of the deposited data

Results flagged for a closer look

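Of 20 member probe sets tested for an outlying array among the 4 B6 arrays, 2 had one, where chance would flag about 1 in 20. Probe sets of the same gene are not independent, so little is read from this count. Both are Rpgrip1 probe sets under the signal filter. At 1431357_a_at B6 array 3 (44.6) stood below the other B6 arrays (176.4 to 206.8), with a gap of 0.887 of the group's range. At 1454231_a_at B6 array 4 (39.6) stood below the others (176.4 to 212.7), with a gap of 0.878 (Dixon's test).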

How the results depend on the processing

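Of 10 genes, 6 were at the B6 level as reported, and 5 to 7 were over all other settings tried. The 2 at the 129/Sv level became 1 without 129/Sv array 2 or null array 2 (range 1 to 2 over left-out arrays). Null against B6 was called at 2 member probe sets, at 4 with a pseudocount of 64, at 4 in a fit of only the groups compared, at 1 with a filter at the 75th percentile, and at 2 to 4 over left-out arrays, reaching 4 without 129/Sv array 1 or 2. Rpgrip1 and Trim34a were the added calls in each of these 4 settings. Null against 129/Sv was called at 8 to 12 over all settings. The 9 called neighbours were 4 to 11 over left-out arrays, 4 without 129/Sv array 1 or 2. Signs turned for Tmem87a without B6 arrays 3 and 4 (-0.163), for Trim34a over left-out arrays (-0.332 to 1.304) and for Pttg1 (-0.024 to 0.103), none of them called. Sdc4 against 129/Sv was -1.405 with adjusted p = 0.0728 without the trend. Quantile normalization and equal array medians changed no class count or call against B6. With the replicate number as a block, null was called against B6 at 2 and against 129/Sv at 11 member probe sets. Same-numbered arrays deviated together with correlations of -0.075 to 0.096, so the numbers were not taken to pair the arrays. The 2 arrays of 129/Sv, and signals under the array median, limit the precision.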
